A study of Mus musculus with 7 samples.

Results

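The genes described here carry glucose through glycolysis, lactate transport and the pentose phosphate pathway, and were chosen by name as a fixed set of 37 mouse genes covering glucose uptake, the glycolytic enzymes, lactate dehydrogenases and lactate transporters, the entry of pyruvate into mitochondria, regulators of the pathway and the pentose phosphate enzymes. Of these, 36 were rows of the count table of 13280 genes, and Aldoc was not analysed here. The libraries came from muscle stem cells (MuSCs) of hindlimb muscle of adult heterozygous Gli1-CreERT2; R26-tdT mice on a strain background labelled C57BL/6, which the study's methods give as a mix of C57BL6 and 129. In these mice a tamoxifen (TAM)-dependent Cre is made from a single Gli1 allele, which the insertion disrupts, and Cre switches on the red fluorescent protein tdT, so tdT reports Cre activity from the Gli1 locus and not the Gli1 transcript itself. All cells were sorted 3 days after TAM as CD45-CD31-Sca1-VCAM1+ cells, tdT+ (Gli1+) MuSCs in 4 libraries and tdT- (Gli1-) MuSCs in 3, and both groups carried the same alleles and TAM. Each library was made from 1 ng of total RNA, and whether it came from 1 mouse or several is not stated.

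Glycolysis splits glucose into pyruvate in the cytosol and yields ATP without oxygen. Pyruvate is then reduced to lactate, which leaves the cell through monocarboxylate transporters, or enters mitochondria and is oxidised by pyruvate dehydrogenase. The pentose phosphate pathway branches off at glucose 6-phosphate and yields NADPH and ribose. Quiescent MuSCs are known for low glycolytic flux, and glycolytic genes rise when MuSCs activate.

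Libraries held 10595181 to 19662721 reads assigned to genes, and 11134 genes had 5 or more reads in 2 or more libraries and were tested. Values are given as CPM, counts scaled to a common library size and adjusted by the trimmed mean of M-values (TMM), and libraries are listed in the order of replicates 1 to 3 (Gli1-) and 1 to 4 (Gli1+). The number of genes with a read was 10829, 5471 and 6834 in the Gli1- libraries and 8579 to 10016 in the Gli1+ libraries, so Gli1- replicates 2 and 3 stood apart from the other 5. The 9 MuSC markers examined, Pax7 among them, were read in all 7 libraries. Their summed level was 4685 to 6664 CPM in Gli1- and 4222 to 6184 CPM in Gli1+ MuSCs. The summed level of 5 endothelial markers was 48.6 to 747 CPM in Gli1- and 29.0 to 783 CPM in Gli1+ libraries, highest in Gli1- replicate 2 and Gli1+ replicate 3. That of 9 fibroblast markers was 2722 to 5283 CPM in Gli1- and 2558 to 10406 CPM in Gli1+ libraries. That of 9 dissociation and immediate early markers was 55446 to 154068 CPM in Gli1- and 61878 to 140842 CPM in Gli1+ libraries. It was highest in Gli1- replicate 1 and lowest in Gli1- replicate 2 and Gli1+ replicate 3. The part of dissociation in the levels below was not tested. In bulk RNA, fewer cells of a type and less RNA per cell cannot be told apart.

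The abundant glycolytic mRNAs were read at overlapping levels in both populations. Among genes read in every library, the 2 with the lowest fitted fold change in Gli1+ MuSCs were the lactate transporter gene Slc16a3 and the glucose transporter gene Slc2a3, and neither passed the test. Of the 34 genes tested, 24 had a fitted log2 fold change (Gli1+ over Gli1-) above 0 (70.6%) and 10 below. Over all 11134 genes tested this share was 65.3%. The median log2 fold change of the 34 genes was 0.29, and that of all genes tested was 0.30. With Benjamini-Hochberg adjustment over all genes tested, edgeR's quasi-likelihood test gave no call: 0 of the 34 passed an adjusted p of 0.05 (background 0.0%, 0 of 11134 genes), and the adjusted p was 1.00 for each of the 34. At an unadjusted p under 0.05, 0 were higher (background 1.53%) and 0 were lower (background 0.611%). DESeq2 called 0 of the 34 at an adjusted p of 0.05 and 66 of all genes, and limma-voom with quality weights per library called 0 of either. At an unadjusted p under 0.05, DESeq2 gave 1 of the 34 lower, Slc16a3, against 0.674% of all genes. Limma-voom gave 3 higher, Pdk2, Pfkl and Taldo1, against 6.49% of all genes, a share near the background. Non-overlapping groups were seen for 1 of the 34, Slc2a3, which was lower in every Gli1+ library (background 0.934%), and for 0 in the other direction (background 2.87%).

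**Figure D1:**
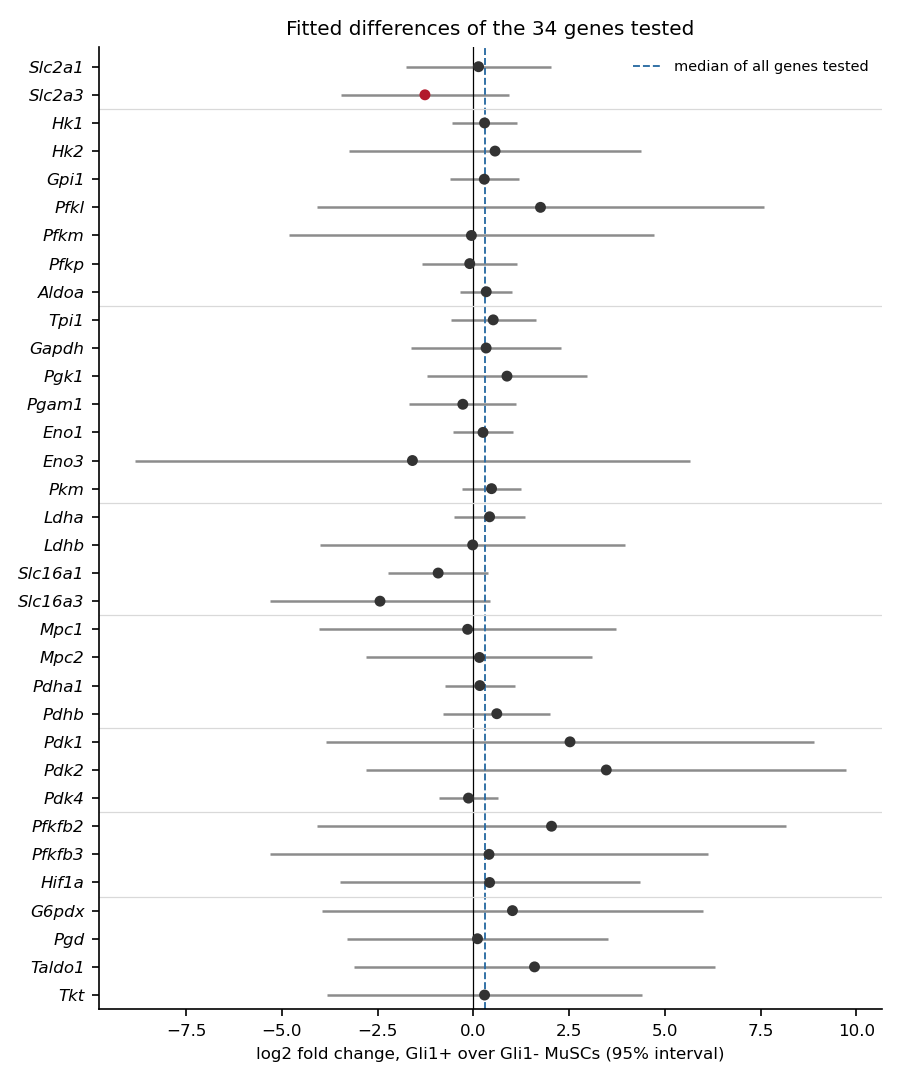
Fitted log2 fold change of each of the 34 genes tested (x axis, Gli1+ over Gli1- MuSCs, points) with its 95% interval (grey lines), grouped by role along the y axis. The red point is Slc2a3, the gene whose groups do not overlap, and the dashed line is the median of all genes tested (0.30). Every interval includes 0, and the intervals are widest for genes with a library without a read.

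The intervals show how large a difference these libraries could hide. The standard error of the log2 fold change ran from 0.31 for Aldoa to 3.34 for Eno3, with a median of 1.17 over the 34 genes, against 2.13 over all genes tested. For Aldoa the 95% interval was -0.34 to 1.01 and for Pkm -0.29 to 1.24. For Pdk2 it was -2.80 to 9.74. Leaving out Gli1- replicate 1 left the Gli1- libraries with the fewest genes, and 5 of the 34 then had an unadjusted p under 0.05 on the higher side and 2 on the lower side, against 11.4% and 0.474% of all genes.

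Glucose enters MuSCs through facilitative transporters, of which Slc2a1 (GLUT1) serves basal uptake in many cells and Slc2a3 (GLUT3) is the high-affinity form best known from neurons. Slc2a3 was at 40.0, 96.9 and 49.5 CPM in the Gli1- libraries and at 20.1, 33.4, 36.6 and 13.4 CPM in the Gli1+ libraries. All 3 Gli1- values lay above all 4 Gli1+ values, by a margin of a few CPM between Gli1- replicate 1 and Gli1+ replicate 3. The group means were 62.1 ± 30.5 (SD, n = 3) and 25.9 ± 11.0 CPM (SD, n = 4), 2.40-fold higher in Gli1- MuSCs, and the fitted log2 fold change was -1.26 (95% interval -3.45 to 0.92). An exact two-sided permutation test of 3 against 4 libraries cannot go below 0.0571 for any gene. The groups overlapped when libraries were scaled by their totals alone. Slc2a1 was at 36.4, 53.0 and 39.1 CPM in Gli1- and at 59.3, 44.9, 24.0 and 60.1 CPM in Gli1+ MuSCs, with overlapping groups. Per kilobase of transcript, Slc2a3 made up 47.6%, 60.1% and 51.0% of the reads of both transporters in Gli1- and 21.8%, 38.0%, 55.6% and 15.5% in Gli1+ libraries, so the shares overlapped in Gli1+ replicate 3. With all annotated exons as length, its share was 34.8%, 46.9% and 38.0% in Gli1- and 14.1%, 26.5%, 42.4% and 9.73% in Gli1+ libraries.

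Lactate leaves and enters cells through the monocarboxylate transporters Slc16a1 (MCT1) and Slc16a3 (MCT4), of which MCT4 is the low-affinity form typical of glycolytic cells and a known target of the hypoxia factor HIF-1. Slc16a3 was at 16.7, 104 and 84.2 CPM in Gli1- libraries and at 6.76, 4.30, 10.5 and 28.8 CPM in Gli1+ libraries. Gli1- replicates 2 and 3 lay far above all others, while Gli1- replicate 1 fell between Gli1+ replicates 3 and 4. The means were 68.1 ± 45.6 (SD, n = 3) and 12.6 ± 11.1 CPM (SD, n = 4), 5.41-fold higher in Gli1- MuSCs. The fitted log2 fold change was -2.44 ± 1.32 (SE), the lowest of the 34 genes, with an unadjusted p of 0.0895 in edgeR's quasi-likelihood test. It was -3.27 without Gli1+ replicate 4 and -0.41 without both Gli1- replicates 2 and 3, an alternative added after seeing the data.

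Slc16a1 was also highest in Gli1- replicates 2 and 3, at 38.2, 96.9 and 125 CPM in Gli1- and at 47.0, 58.2, 28.2 and 50.2 CPM in Gli1+ MuSCs. Gli1- replicate 1 again lay among the Gli1+ libraries, and the fitted log2 fold change was -0.92 (95% interval -2.23 to 0.39). Per kilobase, Slc16a3 made up 30.8%, 52.2% and 40.8% of the reads of both transporters in Gli1- libraries, and 12.8%, 7.01%, 27.5% and 36.96% in Gli1+ libraries. The shares overlapped, since Gli1+ replicate 4 exceeded Gli1- replicate 1. The chaperone of these transporters, Bsg (basigin), had a fitted log2 fold change of 0.26 ± 0.36 (SE), and Emb, the embigin chaperone, one of -0.69 ± 1.12 (SE).

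**Figure D2:**
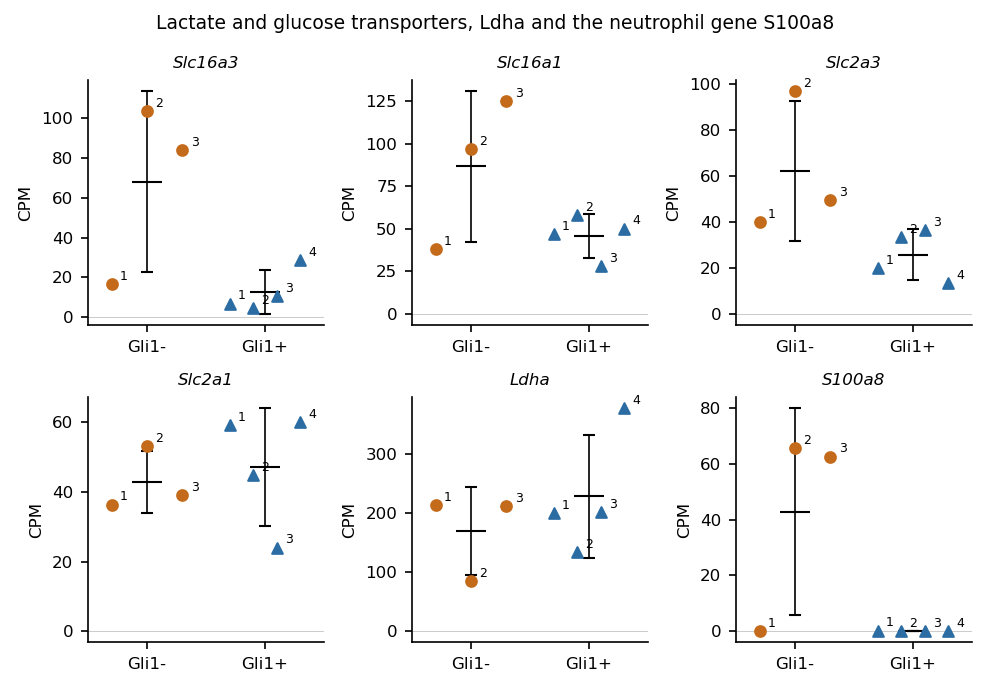
CPM (y axis) of the lactate transporter genes Slc16a3 and Slc16a1, the glucose transporter genes Slc2a3 and Slc2a1, Ldha and the neutrophil gene S100a8 in each library, numbered by replicate, with the mean and SD of each group. Gli1- replicates 2 and 3 are the highest libraries for Slc16a3 (104 and 84.2 CPM), Slc16a1 and S100a8 (65.8 and 62.7 CPM), and for Slc2a3. S100a8 was singled out after its values were seen, and the 7 immune markers as a sum did not follow this pattern.

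A marker of another cell type had high values in the same libraries. S100a8, a neutrophil gene on the list of 7 immune markers and singled out after its values were seen, was at 0, 65.8 and 62.7 CPM in Gli1- and at 0.185, 0, 0 and 0 CPM in Gli1+ libraries. S100a9, its partner, was at 8.22, 64.1 and 0 CPM in Gli1- libraries and had no read in Gli1+ libraries. The 7 immune markers as a sum did not follow this pattern. They summed to 20.02, 197 and 62.7 CPM in Gli1- and to 0.185, 0, 208 and 161 CPM in Gli1+ libraries. Gli1+ replicates 3 and 4 thus had high sums without a read of S100a8 or S100a9. Ptprc, Cd68, Adgre1 and C1qa had no read in any Gli1- library. The sort kept CD45- cells, a gate meant to leave out neutrophils. The part of such cells in the Slc16a3 and Slc2a3 values was not tested. The endothelial markers summed to 747 CPM in Gli1- replicate 2, where Slc16a3 was at 104 CPM. Their sum was 783 CPM in Gli1+ replicate 3, where Slc16a3 was at 10.5 CPM. The part of endothelial cells in these values was not tested either.

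The promoters of both lactate transporters hold the core of the hypoxia response element, the short sequence bound by HIF-1, and are shown for that reason together with that of Bnip3, a hypoxia gene described below. The core was searched as ACGTG and GCGTG on both strands of RefSeq promoter windows of GRCm38.p6, 250 bases before to 50 after a transcription start. Capitals mark each match, overlapping matches run together, and the E-box CACGTG holds ACGTG on both strands. The windows are at chr11:120948817-120949116 (plus strand, 2 matches) for Slc16a3, chr3:104638414-104638713 (plus strand, 5 matches) for Slc16a1 and chr7:138909457-138909756 (minus strand, 5 matches) for Bnip3.
Slc16a3: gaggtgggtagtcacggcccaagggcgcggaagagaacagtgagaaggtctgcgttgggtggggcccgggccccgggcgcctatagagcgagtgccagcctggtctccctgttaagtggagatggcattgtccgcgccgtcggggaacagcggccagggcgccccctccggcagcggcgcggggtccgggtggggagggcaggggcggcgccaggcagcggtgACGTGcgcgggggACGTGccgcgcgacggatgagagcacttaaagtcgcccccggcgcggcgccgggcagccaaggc
Slc16a1: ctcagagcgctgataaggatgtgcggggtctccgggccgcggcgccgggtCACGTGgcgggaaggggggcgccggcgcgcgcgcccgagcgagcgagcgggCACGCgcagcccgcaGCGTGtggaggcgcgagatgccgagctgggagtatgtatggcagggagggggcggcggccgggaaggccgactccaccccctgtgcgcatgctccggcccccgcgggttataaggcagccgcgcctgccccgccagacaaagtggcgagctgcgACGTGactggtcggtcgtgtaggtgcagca
Bnip3: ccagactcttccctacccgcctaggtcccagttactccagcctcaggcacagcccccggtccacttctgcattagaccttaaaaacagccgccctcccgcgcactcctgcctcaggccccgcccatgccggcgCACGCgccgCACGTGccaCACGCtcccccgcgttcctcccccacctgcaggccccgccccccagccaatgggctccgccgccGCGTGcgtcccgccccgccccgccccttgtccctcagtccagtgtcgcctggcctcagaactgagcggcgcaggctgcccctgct
A match was present in 43 of 54 windows of 36 genes of the set (79.6%) and in 43.8% of all 32851 windows. Base composition was not matched between them, and a match is only a run of letters in this window.

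Lactate dehydrogenase interconverts pyruvate and lactate, with Ldha (muscle type) favouring lactate and Ldhb (heart type) favouring pyruvate. Ldha was at 213, 84.1 and 212 CPM in Gli1- and at 200, 133, 201 and 376 CPM in Gli1+ MuSCs. The groups overlapped, and the fitted log2 fold change was 0.42 (95% interval -0.51 to 1.36). Ldhb was at 23.4, 70.6 and 0 CPM in Gli1- and at 39.8, 29.2, 30.8 and 24.0 CPM in Gli1+ libraries. Per kilobase, Ldha made up 87.0%, 46.8% and 100% of the reads of both in Gli1- libraries and 77.1% to 92.1% in Gli1+ libraries, so Gli1- replicates 2 and 3 lay outside the Gli1+ range on opposite sides.

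Hexokinases trap glucose as glucose 6-phosphate. Hk1, the constitutive form, was at 92.9 to 164 CPM in Gli1- and 102 to 232 CPM in Gli1+ libraries. Hk2, the inducible form of muscle and growing cells, was at 43.7, 0 and 35.7 CPM in Gli1- and at 24.9, 29.6, 28.2 and 74.1 CPM in Gli1+ libraries. Hk1 held 78.8% to 100% of the reads per kilobase of the 2 forms in Gli1- and 81.8% to 87.7% in Gli1+ libraries, so Hk1 was the main hexokinase transcript in every library. Gpi1, which makes fructose 6-phosphate, was at 164 to 237 CPM in Gli1- and 137 to 445 CPM in Gli1+ libraries.

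Phosphofructokinase sets the committed step of glycolysis and is built of liver (Pfkl), muscle (Pfkm) and platelet (Pfkp) subunits. Pfkp was read in every library, at 40.5 to 92.0 CPM in Gli1- and 43.2 to 71.7 CPM in Gli1+ MuSCs, with a log2 fold change of -0.09 (95% interval -1.34 to 1.15). Pfkm, the subunit of mature muscle, was at 57.5, 0 and 35.2 CPM in Gli1- and at 48.8, 11.9, 0 and 58.7 CPM in Gli1+ libraries. Pfkl was at 18.4, 0 and 0 CPM in Gli1- and at 36.4, 26.2, 7.19 and 13.0 CPM in Gli1+ libraries. Gli1- replicate 1 lay among the Gli1+ values, and the 2 libraries without a read were those with the fewest genes. Aldoa, the aldolase of muscle and most other cells, was at 544, 477 and 437 CPM in Gli1- and at 437, 591, 638 and 789 CPM in Gli1+ libraries.

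In lower glycolysis, Pkm (pyruvate kinase, which makes pyruvate and ATP) was at 615, 398 and 591 CPM in Gli1- and at 560, 585, 690 and 1139 CPM in Gli1+ libraries. Gli1+ replicate 4 was the highest and Gli1- replicate 2 the lowest, and the remaining 5 libraries lay between 560 and 690 CPM. The fitted log2 fold change was 0.48 ± 0.35 (SE). Tpi1 (triose phosphate isomerase) was at 47.0 to 77.7 CPM in Gli1- and 46.1 to 160 CPM in Gli1+ libraries, and Pgam1 (phosphoglycerate mutase) at 30.1 to 137 CPM and 48.2 to 75.6 CPM. Pgk1, which makes the first ATP of the pathway, was at 100.03, 3.64 and 98.1 CPM in Gli1- and at 111, 81.7, 73.6 and 228 CPM in Gli1+ libraries. The low value was that of Gli1- replicate 2 alone.

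Eno1, the form of most cells, was the main enolase transcript in every library, at 135 to 185 CPM in Gli1- and 127 to 265 CPM in Gli1+ libraries. Eno3, the muscle form, was at 10.5, 21.8 and 0 CPM in Gli1- and at 0, 0, 0 and 14.3 CPM in Gli1+ libraries, with a log2 fold change of -1.59 ± 3.34 (SE). Eno2, the neuronal form, had reads only in Gli1+ replicate 4 (9.77 CPM) and did not pass the filter. Eno1 made up 86.7% to 100% of the reads per kilobase of the 3 enolases in Gli1- and 91.2% to 100% in Gli1+ libraries.

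Per kilobase of the principal transcript, the order of levels over the 7 libraries was led by Aldoa at 370 ± 84.1 (SD, n = 7) CPM per kilobase and Pkm at 269 ± 95.1, followed by Ldha at 115 ± 51.3, Eno1 at 85.0 ± 25.2 and Gpi1 at 76.5 ± 36.5. Aldoa exceeded Pkm in all 7 libraries. Pdk4 (59.0 ± 17.0), Pgk1 (54.5 ± 36.6) and Tpi1 (50.5 ± 23.9) came next, and from Ldha down to Tpi1 each gene differed from its neighbour in the order by less than the larger SD of the pair. Gapdh was at 31.3 ± 10.9 CPM per kilobase, the 85.3 percentile of all genes tested. Its enzyme works between those of Tpi1 and Pgk1, and its level differed from theirs by less than the larger SD of each pair. Gapdh was at 40.5, 48.9 and 26.6 CPM in Gli1- and at 44.3, 40.8, 34.2 and 75.6 CPM in Gli1+ libraries, with overlapping groups.

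**Figure D3:**
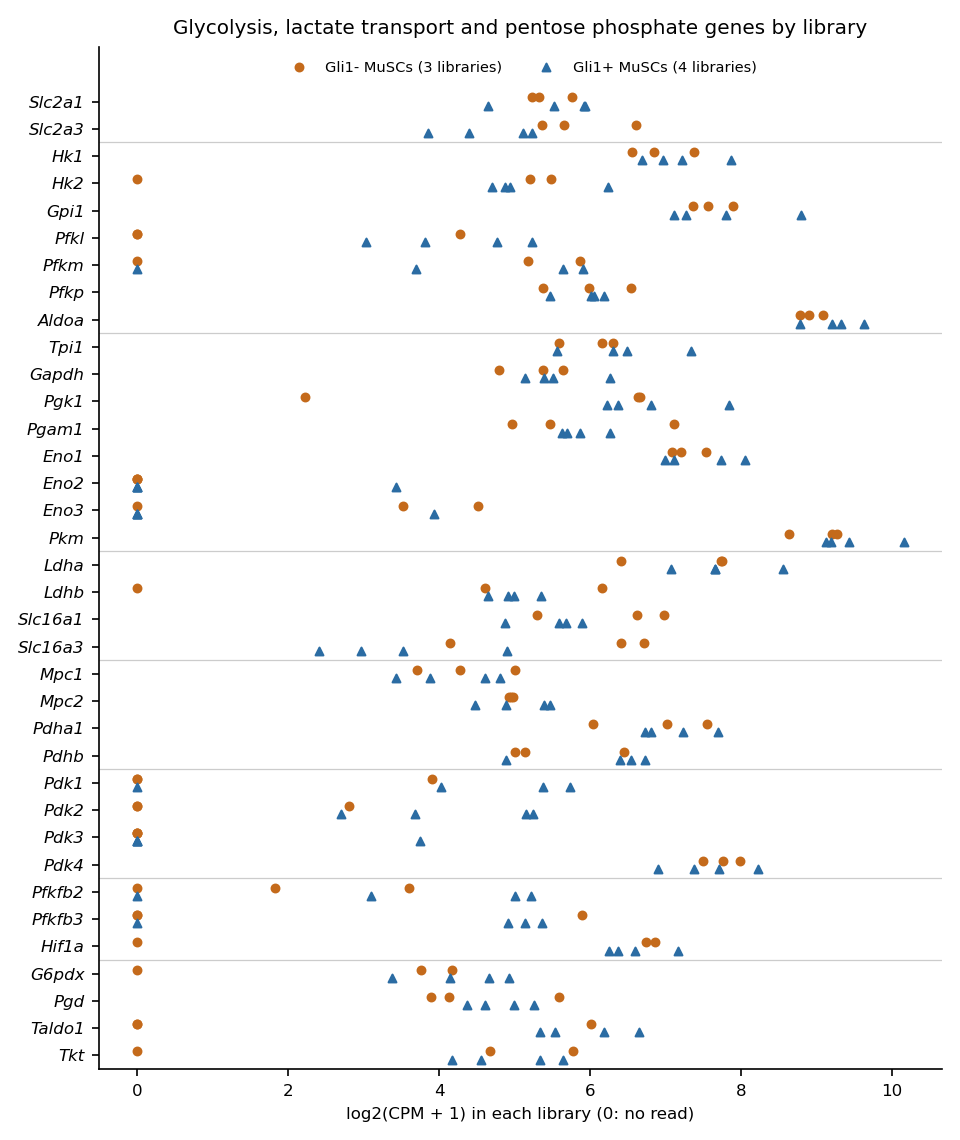
log2(CPM + 1) of each of the 36 genes (y axis, grouped by role) in every library (x axis, 0 means no read), with Gli1- MuSCs as circles and Gli1+ MuSCs as triangles. Aldoa and Pkm are the highest, the groups overlap for every gene tested but Slc2a3, and most points at 0 are Gli1- libraries.

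Sequence shared with other loci limits what a count of some of these genes can mean. Of the 31-base words of the principal transcript of Gapdh (chr6:125161715-125166467, minus strand, GRCm38), 84.1% also occurred in transcripts of other genes, and all of these in the processed pseudogene Gm7336 (chr7:51746647-51747878, plus strand). The coding sequences of both were identical at 999 of 999 bases, and the stretch around the codon of the active-site cysteine of Gapdh, coding bases 406 to 495, shows this, with that codon (number 150) in capitals.
Gapdh: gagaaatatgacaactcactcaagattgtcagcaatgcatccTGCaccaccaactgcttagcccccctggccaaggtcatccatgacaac
Gm7336: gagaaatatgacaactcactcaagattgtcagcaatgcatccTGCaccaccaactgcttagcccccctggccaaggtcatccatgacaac
No base of this stretch tells a Gapdh read from one of Gm7336, and how reads that match several loci were placed could not be learned from the methods or labels. The coding sequence of Pgk1 was likewise identical at 1250 of 1250 aligned bases to the processed pseudogene Pgk1-rs7, and 68.3% of its words were shared. The shared part was 77.2% for Eno1, 50.9% for Pkm, 50.5% for Mpc1, 42.1% for Pgam1, 41.9% for Pdhb, 41.4% for Ldhb, 37.3% for Gpi1, 35.1% for Ldha and 35.04% for Aldoa, so the levels of these genes are uncertain. It was 17.4% to 26.9% for Pfkfb2, Taldo1, Pdha1, Tpi1, G6pdx and Pfkp. It was 0% for Slc16a1, Slc16a3, Slc2a3 and Pdk2. For Eno1, 75.6% of the words occurred in Eno1b, a protein-coding gene counted separately, so the enolase shares are uncertain too. Exons of Pfkp, Gpi1, Pdha1, Mpc1, G6pdx and Hif1a overlap those of a gene on the other strand by 748, 741, 603, 480, 418 and 330 bases. Exons of Pfkfb2, Pkm, Pfkm and Hif1a overlap those of genes on their own strand by 1262, 767, 341 and 148 bases, and 7 genes besides the first group have shorter overlaps on the other strand (Pfkm and Pfkfb2 among them), so reads there may belong to either gene. Aldoa also had a minor row of the same symbol at a neighbouring locus, with reads in 2 libraries, that was not added.

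Pyruvate enters mitochondria through the carrier formed by Mpc1 and Mpc2 and is oxidised by pyruvate dehydrogenase, whose E1 subunits are Pdha1 and Pdhb. Mpc1 was at 12.0 to 31.1 CPM in Gli1- and 9.77 to 27.0 CPM in Gli1+ libraries, and Mpc2 at 29.5 to 30.4 CPM and 21.1 to 43.2 CPM. Pdha1 was at 64.7 to 187 CPM in Gli1- and 104 to 207 CPM in Gli1+ libraries, and Pdhb at 30.99 to 86.2 CPM and 28.5 to 104 CPM. The largest log2 fold change of these 4 was that of Pdhb, 0.61 ± 0.64 (SE), and the groups overlapped for all 4.

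Pyruvate dehydrogenase kinases switch the complex off. Pdk4, the form induced by fasting and fatty acids, was the main kinase transcript, at 179, 216 and 252 CPM in Gli1- and at 209, 118, 299 and 165 CPM in Gli1+ libraries. Its log2 fold change was -0.13 (95% interval -0.90 to 0.64). Pdk2 was at 5.95, 0 and 0 CPM in Gli1- and at 5.46, 36.7, 11.8 and 34.4 CPM in Gli1+ libraries. Its groups overlapped through Gli1- replicate 1 and Gli1+ replicate 1 alone, and its log2 fold change of 3.47 ± 2.89 (SE) was the highest of the 34 genes. Pdk1, a HIF-1 target, was at 14.01, 0 and 0 CPM in Gli1- and at 52.1, 40.3, 0 and 15.2 CPM in Gli1+ libraries, with a log2 fold change of 2.52 ± 2.94 (SE). Pdk3 had reads only in Gli1+ replicate 4 (12.4 CPM) and did not pass the filter. Per kilobase, Pdk4 made up 90.6%, 100% and 100% of the reads of the 4 kinases in Gli1- and 82.8%, 58.4%, 94.2% and 66.2% in Gli1+ libraries. These shares overlapped through Gli1+ replicate 3. Without Gli1- replicates 2 and 3, the log2 fold change of Pdk2 was 1.89 and that of Pdk1 0.94.

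Among the regulators, Hif1a encodes the oxygen-sensitive subunit of HIF-1, which drives glycolytic genes. Hif1a was at 115, 106 and 0 CPM in Gli1- and at 143, 81.4, 75.04 and 95.9 CPM in Gli1+ libraries. The 6 libraries with reads lay within the same range, and Gli1- replicate 3 had no read of a gene that had 825 to 2120 reads in the others. The bifunctional enzymes Pfkfb2 (heart type) and Pfkfb3 (inducible) make fructose 2,6-bisphosphate, the activator of phosphofructokinase. Pfkfb2 was at 2.54, 0 and 11.1 CPM in Gli1- and at 31.03, 36.2, 0 and 7.55 CPM in Gli1+ libraries, and its log2 fold change of 2.04 ± 2.82 (SE) was the third highest. Pfkfb3 was at 58.4, 0 and 0 CPM in Gli1- and at 34.3, 29.1, 40.1 and 0 CPM in Gli1+ libraries.

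In the pentose phosphate pathway, G6pdx (glucose 6-phosphate dehydrogenase, the NADPH-making entry step) was at 16.9, 0 and 12.5 CPM in Gli1- and at 9.35, 16.7, 29.4 and 24.4 CPM in Gli1+ libraries. Pgd, the next NADPH-making dehydrogenase, was at 13.9 to 46.9 CPM in Gli1- and 19.7 to 37.3 CPM in Gli1+ libraries. Taldo1 (transaldolase, of the non-oxidative arm) was at 63.3, 0 and 0 CPM in Gli1- and at 45.3, 71.9, 39.5 and 99.1 CPM in Gli1+ libraries. Tkt (transketolase) was at 53.7, 0 and 24.4 CPM in Gli1- and at 16.9, 22.6, 48.8 and 39.4 CPM in Gli1+ libraries. All 4 had a fitted log2 fold change above 0, from 0.11 for Pgd to 1.60 for Taldo1. The smallest unadjusted p of the 4 was 0.464, and where the group means differed most, Gli1- replicates 2 and 3 had no read while Gli1- replicate 1 lay among the Gli1+ libraries.

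Genes of the set without a read were concentrated in these libraries. In all, 15 of the 36 had no read in at least 1 library, 8 of them only in Gli1- libraries and 0 only in Gli1+ libraries. Of the 34 tested, 10 had no read in Gli1- replicate 2, 8 in Gli1- replicate 3 and 0 in Gli1- replicate 1. The number was 1, 1, 4 and 1 in the Gli1+ libraries. All genes tested showed the same order, with 51.5% and 39.5% without a read in Gli1- replicates 2 and 3 and 7.14% to 24.9% in the other 5. Among genes at 20 to 100 CPM in the remaining libraries, 6 of 19 of the set and 41.3% of all genes had no read in Gli1- replicate 2. In Gli1- replicate 3 these were 4 of 20 and 22.5%. No tested gene of the set had 1 to 4 reads in any library, the lowest count above 0 being 47 reads.

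**Figure D4:**
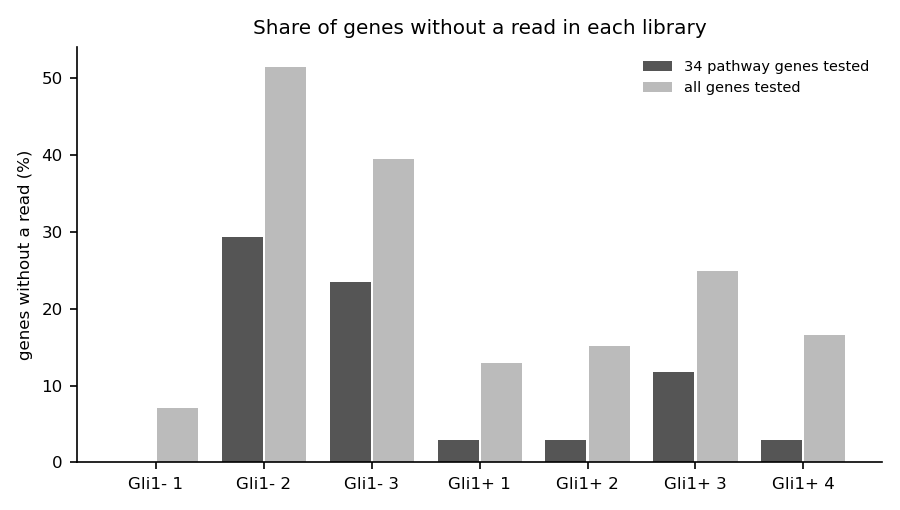
Share of genes without a read (y axis, percent) in each library for the 34 genes of the set tested (dark bars) and all 11134 genes tested (light bars). Gli1- replicates 2 and 3 have the highest shares for both, and the set lies below all genes in every library.

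The summed level of the 36 genes put Gli1+ replicate 4 apart. It was 3298, 2813 and 2790 CPM in Gli1- and 3009, 3094, 3316 and 5027 CPM in Gli1+ libraries. The means were 2967 ± 287 (SD, n = 3) and 3611 ± 953 CPM (SD, n = 4), and without Gli1+ replicate 4 the Gli1+ mean was 3139 ± 158 CPM (SD, n = 3). Scaled by library totals alone, the sum in Gli1+ replicate 4 was 4226 CPM and 2981 to 3440 CPM in the other 6 libraries. Gli1+ replicate 4 was the highest library for 14 of the 34 genes (41.2%) and for 17.2% of all genes tested. Among genes whose mean level exceeded that of 75% of all genes tested, it was the highest for 9 of 15 of the set and for 26.3% of all. The fibroblast markers also had their highest sum there (10406 CPM), while the 11 mature myofibre markers summed to 84.0 CPM, within the range of the other libraries (40.7 to 264 CPM), with 6 of the 11 read there (Acta1 25.1, Atp2a1 15.7, Ckm 15.4, Mb 13.0, Mylpf 10.5 and Myh2 4.33 CPM) and 5 not (Myh1, Myh4, Tnnt3, Tnnc2 and Pvalb). Mb was read in no other library. The part of other cell types in these values was not tested.

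**Figure D5:**
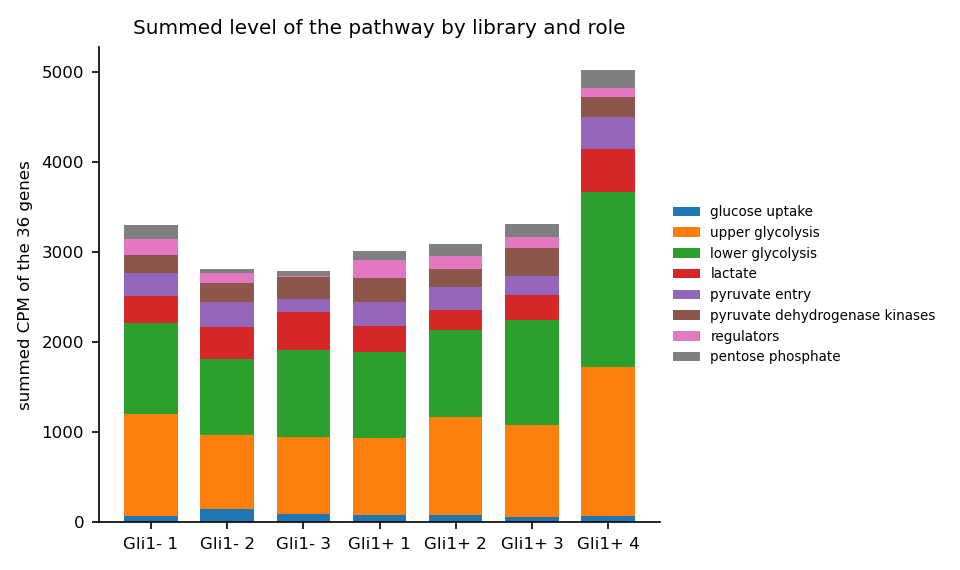
Summed CPM of the 36 genes in each library (y axis), stacked by role. Gli1+ replicate 4 reaches 5027 CPM, mostly through upper and lower glycolysis, and the other 6 libraries lie between 2790 and 3316 CPM.

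A wider list of 78 pathway genes, of which 61 were in the table and 57 tested, covered other transporters, pyruvate metabolism, glycogen, hypoxia and glucose sensing. Of the 57, 40 had a log2 fold change above 0 (70.2%, against 65.3% of all genes tested), and the median was 0.29. At an unadjusted p under 0.05, 0 were higher (background 1.53%) and 1 was lower (background 0.611%), Ankrd37, a hypoxia-induced gene. Ankrd37 was at 4.33, 0 and 13.2 CPM in Gli1- libraries and had no read in the Gli1+ libraries. Its mean in Gli1- MuSCs was 5.83 ± 6.71 CPM (SD, n = 3). The 95% interval of its fitted log2 fold change ran from -18.3 to -0.28, so its size is not known. In edgeR's quasi-likelihood test the unadjusted p was 0.0446, and the adjusted p was 1.00 after Benjamini-Hochberg adjustment. Groups were separate for 3 of the 57, all higher in Gli1+ MuSCs (background 2.87%).

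Adm, which encodes the hypoxia-induced peptide adrenomedullin, was at 5.90, 0 and 0 CPM in Gli1- and at 28.2, 15.3, 22.2 and 19.1 CPM in Gli1+ libraries. Bnip3, a mitophagy receptor induced by hypoxia, was at 6.11, 0 and 0 CPM in Gli1- and at 8.71, 21.9, 25.7 and 27.9 CPM in Gli1+ libraries. Of the 31-base words of Bnip3, 74.7% also occurred in transcripts of other genes, so its level is uncertain. Its exons also overlap those of a gene on the other strand by 504 bases. Adpgk, an ADP-dependent glucokinase, was at 21.8, 0 and 16.5 CPM in Gli1- and at 24.0, 22.2, 32.4 and 33.4 CPM in Gli1+ libraries. Every Gli1+ value of these 3 genes lay above every Gli1- value, but their fitted log2 fold changes of 3.42 ± 2.87, 3.36 ± 2.87 and 1.13 ± 2.10 (SE) had adjusted p of 1.00 in edgeR's quasi-likelihood test after Benjamini-Hochberg adjustment. Without Gli1- replicates 2 and 3 they were 1.85, 1.78 and 0.36. The hypoxia list as a whole was evenly split, with 7 of 14 above 0 (65.3% of all genes tested) and a median of 0.00.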

How the data were processed

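RNA-seq of 7 libraries was analysed, 3 of Gli1- and 4 of Gli1+ MuSCs, with groups and replicate numbers taken from the sample titles. The authors deposited raw counts per gene, which were used. Their own fold changes and p-values, and 14 further columns of per-sample values, were not used. The study's methods give STAR on GRCm38 transcripts, tximport and DESeq2, whereas CASAVA and HISAT2 2.0.5 are named in the submitters' processing notes. Strand use, the annotation release and the handling of reads that match several loci are not given in the sources used here. Read strand is unknown, so a gene and its antisense partner could not be told apart.

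Counts were analysed in R 4.3.3 with edgeR 4.0.16's quasi-likelihood test (two-sided, robust, TMM scaling, at least 5 reads in at least 2 libraries), with p adjusted by Benjamini-Hochberg over 11134 genes. Depth was 10595181 to 19662721 reads. The estimated common dispersion was 3.11 (biological coefficient of variation 1.76). No library pair of a group agreed within sampling noise. The study's figure legend calls each library an independent experiment, but nothing in the labels says that libraries came from separate animals, and p-values measure the spread between these libraries.

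The set and the other lists were chosen with earlier results of these data known. All 37 genes are accounted for. Values per library are given for genes with an unadjusted p under 0.05, non-overlapping groups, the 3 highest and 3 lowest log2 fold changes or a library without a read, and the wider list is named where p was under 0.05 or groups did not overlap. Levels per kilobase use the APPRIS principal transcript of GENCODE vM21 (GRCm38), whose transcripts also gave the shared 31-base words. Promoters are RefSeq windows of GRCm38.p6. Alternatives were DESeq2 1.42.0, limma-voom with quality weights per library (limma 3.58.1), 3 further scalings, 2 further filters, a replicate block, a non-robust fit and each library left out. Leaving out Gli1- replicates 2 and 3 together, and all annotated exons as length, were added after seeing the data.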

Additional observations from a re-analysis of the deposited data

Results flagged for a closer look

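In the 4 Gli1+ libraries, 1 value stood apart from the other 3 by Dixon's criterion at 95% for 4 of 40 genes examined and for the summed level of the set, and chance alone would give about 1 in 20 for values without ties. All 5 were values of Gli1+ replicate 4. The summed level of the 36 genes was 5027 CPM there. Hk2 was at 74.1 CPM, against 24.9 to 29.6 CPM in the other Gli1+ libraries. Eno2 (9.77 CPM), Eno3 (14.3 CPM) and Pdk3 (12.4 CPM) had reads in this Gli1+ library and in no other Gli1+ library, so any read there stands apart by construction and the rate of 1 in 20 does not apply to these 3 genes.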

How the results depend on the processing

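The median log2 fold change of the set stayed within the spread between libraries under all alternatives, from 0.05 without Gli1+ replicate 4 to 0.48 without Gli1- replicate 1. It was not always near the median of all genes tested. The set and all genes were at 0.30 and 0.93 with limma-voom, and at 0.13 and 0.52 with the replicate block. Without Gli1+ replicate 4 they were at 0.05 and 0.29. Under these alternatives, 0 genes of the set were called at an adjusted p of 0.05. Over all genes, DESeq2 called 66 in place of 0, and leaving out a library gave 0 to 2. With at least 5 reads in all 7 libraries, 21 genes of the set were tested. Of these, 2 were lower in Gli1+ MuSCs at an unadjusted p under 0.05, Slc16a3 and Slc2a3, against 1.68% of the 3697 genes tested. At an unadjusted p under 0.05, genes of the set lower in Gli1+ MuSCs numbered 1 with DESeq2 (0.674%) and 0 to 2 when a library was left out (0.249% to 0.525%). Those higher numbered 3 with limma-voom (6.49%) and 0 to 5 when a library was left out (0.634% to 11.4%, the 5 and 11.4% without Gli1- replicate 1). Non-overlapping groups numbered 0 to 3 higher and 1 to 3 lower when a library was left out, and 0 lower with library totals alone. The share over all genes was not computed for these counts. Groups of fewer libraries separate more easily, so the counts with a library left out cannot be set beside those of the main fit. Each of the 10 named genes kept its sign in every fit that tested it. These genes were picked by their differences in these same data, so the kept sign adds no support. Ankrd37, without a read in Gli1+ libraries, could not change sign, and some fits did not test it. Whether the replicate numbers pair the libraries remained unknown. Deviations from the group means correlated at 0.217, -0.0987 and 0.0679 between same-numbered libraries, and not every library correlated best with its own number. With so few libraries per group, this check cannot exclude pairing. With the replicate block, 0 genes were called and the median of the set was 0.13. With all annotated exons as length, the mean share of Slc2a1 among glucose transporters was 60.1% in Gli1- MuSCs, against 47.1% with the principal transcript. Eno1 among enolases was at 84.6% against 92.5% in Gli1- MuSCs. In Gli1+ MuSCs, Hk1 among hexokinases was at 74.0% against 85.3% and Ldha among lactate dehydrogenases at 75.6% against 82.7%. Only the length used as divisor differed, so which glucose transporter held the larger share in Gli1- MuSCs depends on that length. Depth limits counting error only, and 3 reads correspond to 0.162 to 0.302 CPM.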
